A study of Solanum chacoense with 24 samples.

Results

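The 100 most abundant genes of Solanum chacoense leaves were followed here across 2 genotypes, 2 arms and 3 harvests of a study of feeding by the Colorado potato beetle. They were the 100 genes with the highest mean CPM (the usual library-scaled count, in which a gene's reads are set against all reads on genes) over 23 of the 24 libraries, 100 of 32917 gene identifiers, or 0.304% of them. The choice therefore rests on the measured levels, and the levels themselves are given as a description. The 12 groups, of 2 libraries each, were USDA8380-1 in the beetle arm at 0, 24 and 48 h, USDA8380-1 in the control arm at the same hours, EE501F2_093 in the beetle arm at the same hours, and EE501F2_093 in the control arm at the same hours. Each genotype is a set of plantlets raised in vitro, 6 plants in all at 2 per cage, with 2 beetle cages and 1 control cage per genotype. When plants were 15 weeks old, 50 starved adult beetles were applied, and the labels do not say whether that is per cage. Leaves of the 0 h harvest were taken before the beetles in both arms, so no library at 0 h was exposed to them. Each library held pooled tissue of the third fully expanded leaf. Cage and beetle effects cannot be told apart within a genotype, and the labels do not say which plants entered which library. The p-values below therefore measure the spread between pools that may share plants.

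In a leaf, a small number of genes usually supplies a large part of the messenger RNA, and genes of photosynthesis are the best known among them. Chewing insects induce defence genes in plants of the potato family through wound and jasmonate signals, and proteinase inhibitors are a textbook example that can reach high levels in leaves. Neither class could be looked for among the members: the files do not pair the identifiers with names, 0 of the members carry one here, and the tissue label could not be checked by markers for the same reason. Gene lengths and sequences were not used here either. CPM is not corrected for gene length, so an order of members by CPM is an order of their reads and not of their transcripts.

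The 23 libraries held 25050119 to 51999317 counts on genes, and the smallest count of any member in any of them was 390. The remaining library, USDA8380-1 beetle 0 h replicate 3, held 2114184 counts with 17.4% of its reads outside genes, against 7.76% to 12.0% in the others, and it was left out of the choice of members and of the tests. With 95% Wilson intervals the share of a library's counts in the members was known to within 0.0170 percentage points in the 23 libraries and 0.0522 in the shallow one, which covers counting error only. The spread between libraries of a group, as a biological coefficient of variation, was 0.414. Counts of calls are also given with all 24 libraries, and without USDA8380-1 control 24 h replicate 2, which earlier results of these data had set apart. USDA8380-1 beetle 0 h entered the tests as 1 library. Ranges, means and overlaps below are over the 23 libraries, unless the shallow library is named.

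The members held 27.7% of all counts on average over the 23 libraries. The 10 highest held 6.50%, the 20 highest 11.2% and the 50 highest 20.1%, and adding the next 100 genes brought the share to 36.0%. The decline with rank was gradual, since the first member was 7.40 times as abundant as the last. At the limit, Soltu.DM.03G035340.1 and Soltu.DM.06G017440.1 were inside at 1172 and 1156 CPM, and Soltu.DM.10G002270.1 and Soltu.DM.01G024300.1 outside at 1155 and 1148 CPM. The standard deviations of these 4 over libraries, 490.9 to 1188 CPM, were far above the steps between them.

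The highest member, Soltu.DM.12G027320.1, averaged 8560 ± 10273 CPM (SD, n = 23), with 39.5 CPM in its lowest and 37505 CPM in its highest library. The second, Soltu.DM.12G004810.1, averaged 7392 ± 1917 CPM and ranged only between 3259 and 9927 CPM. Next came Soltu.DM.07G015870.1 at 7231 ± 2721 CPM and Soltu.DM.09G025910.1 at 6428 ± 6770 CPM. These 4 means do not differ beyond their spread, yet their spreads differed. For Soltu.DM.12G027320.1 and Soltu.DM.09G025910.1 the SD exceeded the mean, while for Soltu.DM.12G004810.1 and Soltu.DM.07G015870.1 it was well below the mean. Soltu.DM.07G015870.1 still ranged between 1983 and 14181 CPM. Soltu.DM.07G028260.1 at 6427 ± 2158 CPM, Soltu.DM.09G025890.2 at 6219 ± 5643 CPM and Soltu.DM.03G018450.1 at 5904 ± 3493 CPM followed. The 10 highest were completed by Soltu.DM.03G004480.1 at 5857 ± 2783 CPM, Soltu.DM.02G007030.4 at 5557 ± 2717 CPM and Soltu.DM.03G000820.1 at 5390 ± 1512 CPM. Neighbours in this order overlapped in all cases.

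**Figure D1:**
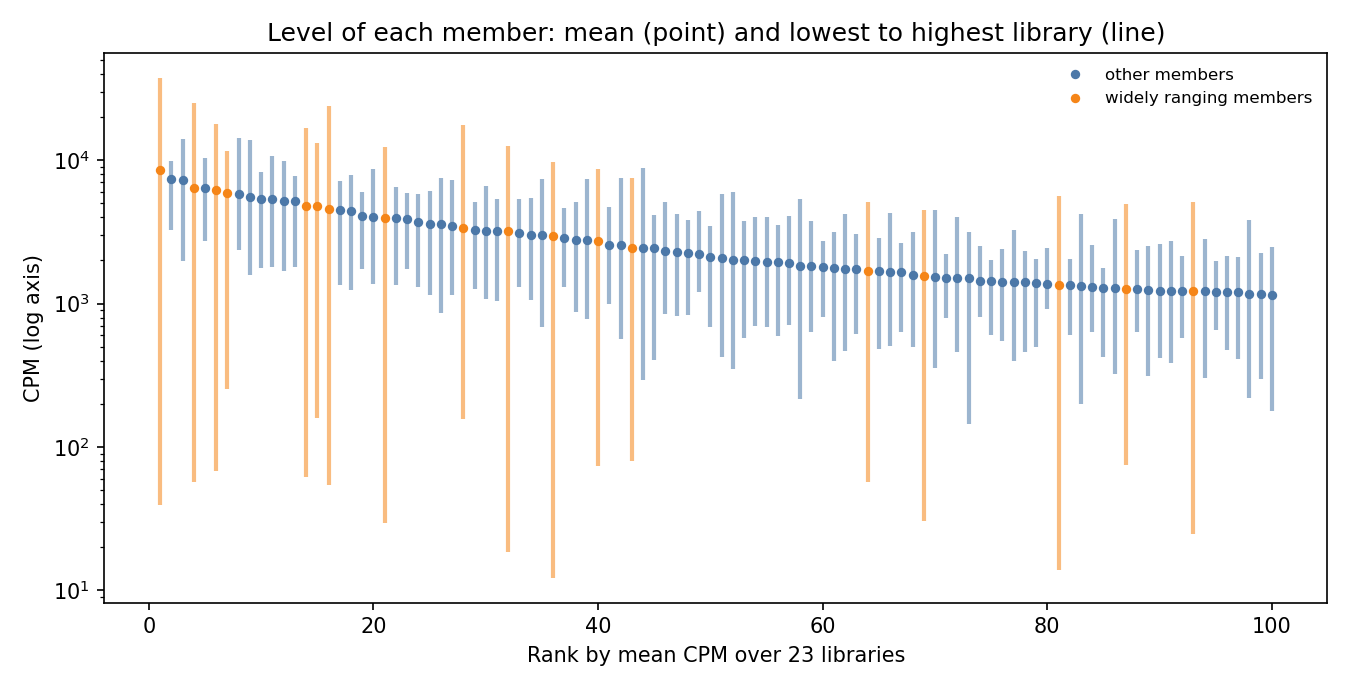
Mean CPM (points, log axis) of the 100 members by rank over 23 libraries, with lines that join the lowest and the highest library. Orange marks 18 members whose highest library was at least 40 times the lowest; Soltu.DM.12G027320.1, the first, spans 39.5 to 37505 CPM, while Soltu.DM.12G004810.1, the second, spans 3259 to 9927 CPM.

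No single gene led everywhere. Of the 23 libraries, Soltu.DM.12G027320.1 was the most abundant gene in 6, Soltu.DM.12G004810.1 in 4 and Soltu.DM.09G025910.1 in 3, and 10 different genes led at least 1 library. The 6 led by Soltu.DM.12G027320.1 were all harvested at 24 or 48 h, and 5 of them came from the beetle arm. It alone supplied 2.84% of the counts of USDA8380-1 beetle 24 h replicate 2 and 3.75% of those of EE501F2_093 beetle 48 h replicate 2. These 2 libraries also shared the fewest genes between their own 100 most abundant and the members, 58 and 62, against 86 in EE501F2_093 control 24 h replicate 1, the highest of the 23. Over all libraries, 235 genes entered a library's own 100 at least once, and 23 members were in it every time. When the 100 highest genes were chosen within each genotype, 79 were shared, and 89 of the USDA8380-1 list and 90 of the EE501F2_093 list were members. The number of genes needed to reach 50% of the counts lay between 277 in USDA8380-1 control 0 h replicate 2 and 808 in USDA8380-1 control 24 h replicate 1.

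The summed share of the members overlapped between the groups. In USDA8380-1 beetle leaves it was 27.1% at 0 h (18.3% in the shallow replicate), 29.6% and 27.9% at 24 h, and 34.9% and 29.8% at 48 h. USDA8380-1 control leaves had 35.0% and 29.1% at 0 h, 24.8% and 24.0% at 24 h, and 24.5% and 29.6% at 48 h. In EE501F2_093 beetle leaves the share was 29.4% and 24.6% at 0 h, 30.4% and 23.8% at 24 h, and 26.6% and 30.5% at 48 h. EE501F2_093 control leaves had 28.1% and 23.7%, then 27.0% and 27.9%, then 23.7% and 24.2% at the 3 harvests. Replicates lay up to several points apart, the most in the pair of the shallow library and, among the 23 libraries, in EE501F2_093 beetle leaves at 24 h.

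None of the 8 comparisons of this share passed a threshold of 0.05 after Benjamini-Hochberg adjustment over the 8. After beetle placement (24 and 48 h together) it was 29.2% ± 3.25 in beetle leaves and 25.7% ± 2.17 in control leaves (SD, n = 8 each), a difference of 3.46 percentage points (two-sided exact permutation test within genotype, p = 0.0294, adjusted p = 0.235). Within USDA8380-1 beetle and control leaves had 30.5% ± 3.04 and 25.7% ± 2.59 (n = 4 each, difference 4.80, exact permutation p = 0.0857, adjusted p = 0.343). Within EE501F2_093 they had 27.8% ± 3.22 and 25.7% ± 2.06 (n = 4 each, difference 2.12, exact permutation p = 0.371, adjusted p = 0.594). USDA8380-1 leaves had 28.8% ± 3.73 (n = 11) and EE501F2_093 leaves 26.6% ± 2.62 (n = 12), with a difference of 2.11 (two-sided permutation test with 100000 resamples, p = 0.130, adjusted p = 0.345). The 4 comparisons of a later harvest with 0 h gave differences between −3.84 and 0.800 percentage points and adjusted p between 0.571 and 0.914 (exact permutation tests). With 4 libraries against 4 the smallest permutation p attainable before adjustment is 0.0286, and with 4 against 3 it is 0.0571. The USDA8380-1 harvests therefore could not have passed. After adjustment over the 8, a 4 against 4 test could pass only if several of the 8 had p-values that small. The lack of a pass within a genotype therefore decides little. The share depended on the choice of members: with the 50 highest genes the beetle and control leaves of both genotypes differed by 3.80 percentage points and passed (exact permutation test, adjusted p = 0.0457). Those 50 were ranked on the levels of the libraries tested, and genes high in beetle leaves could enter through them. No arm difference is therefore read from that pass. Of the 4 harvest differences, the 24 h one in USDA8380-1 kept its sign under every alternative run, and the other 3 changed sign under at least 1 other choice of members or libraries.

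Within this sum some members ranged far more than the rest. The 18 members whose highest library exceeded the lowest at least 40-fold (called widely ranging below) were set apart after their values were seen, so their sums are descriptions. The choice fixes much of their pattern: all 18 had their highest library at 24 or 48 h, 16 of them in the beetle arm, and all 18 had their lowest library in the control arm, so a direction between hours or arms is not read from their sums. The nearest members below the limit were Soltu.DM.09G030450.3 at 29.96-fold and Soltu.DM.12G023640.1 at 25.1-fold, and the nearest above it were Soltu.DM.03G018450.1 at 45.9-fold and Soltu.DM.11G012500.1 at 66.1-fold. The median coefficient of variation was 1.04 for the 18 and 0.381 for the other 82. Over all members it was 0.416, against 0.428 for the 100 genes of the next ranks.

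At 0 h the widely ranging members held 1.75% ± 1.53 of the counts (n = 7), at 24 h 7.99% ± 4.75 and at 48 h 9.77% ± 6.00 (n = 8 each). The other 82 held 26.4% ± 2.90, 18.9% ± 4.11 and 18.2% ± 3.37 at these harvests. In USDA8380-1 beetle leaves the widely ranging members held 3.42% at 0 h (2.26% in the shallow replicate), 11.05% and 17.4% at 24 h, and 17.1% and 11.3% at 48 h. In USDA8380-1 control leaves they held 4.39% and 0.992%, then 8.75% and 3.70%, then 7.36% and 9.42% at the 3 harvests. At 24 and 48 h the 4 beetle libraries averaged 14.2% ± 3.52 and the 4 control libraries 7.31% ± 2.55. The arms did not overlap here, but the choice of the widely ranging members favours that direction, so no arm difference is read from it.

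In EE501F2_093 leaves the arms overlapped. The widely ranging members held 1.47% and 0.797% in beetle leaves at 0 h, 9.36% and 3.75% at 24 h, and 7.18% and 18.9% at 48 h. In EE501F2_093 control leaves they held 0.485% and 0.679%, then 6.05% and 3.86%, then 0.158% and 6.81% at the 3 harvests. At 24 and 48 h the means were 9.80% ± 6.49 in beetle and 4.22% ± 2.98 in control leaves (n = 4 each). The control 48 h pair contained both a library below all 0 h libraries and one within the range of beetle leaves, and the widely ranging members differed between these 2 replicates by a median of 5.62 on the log2 scale, the largest gap of any group. In USDA8380-1 control leaves at 0 h the corresponding gap was 3.20. In pooled leaf tissue a change in the number of cells that express a gene and a change in its RNA per cell cannot be told apart.

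**Figure D2:**
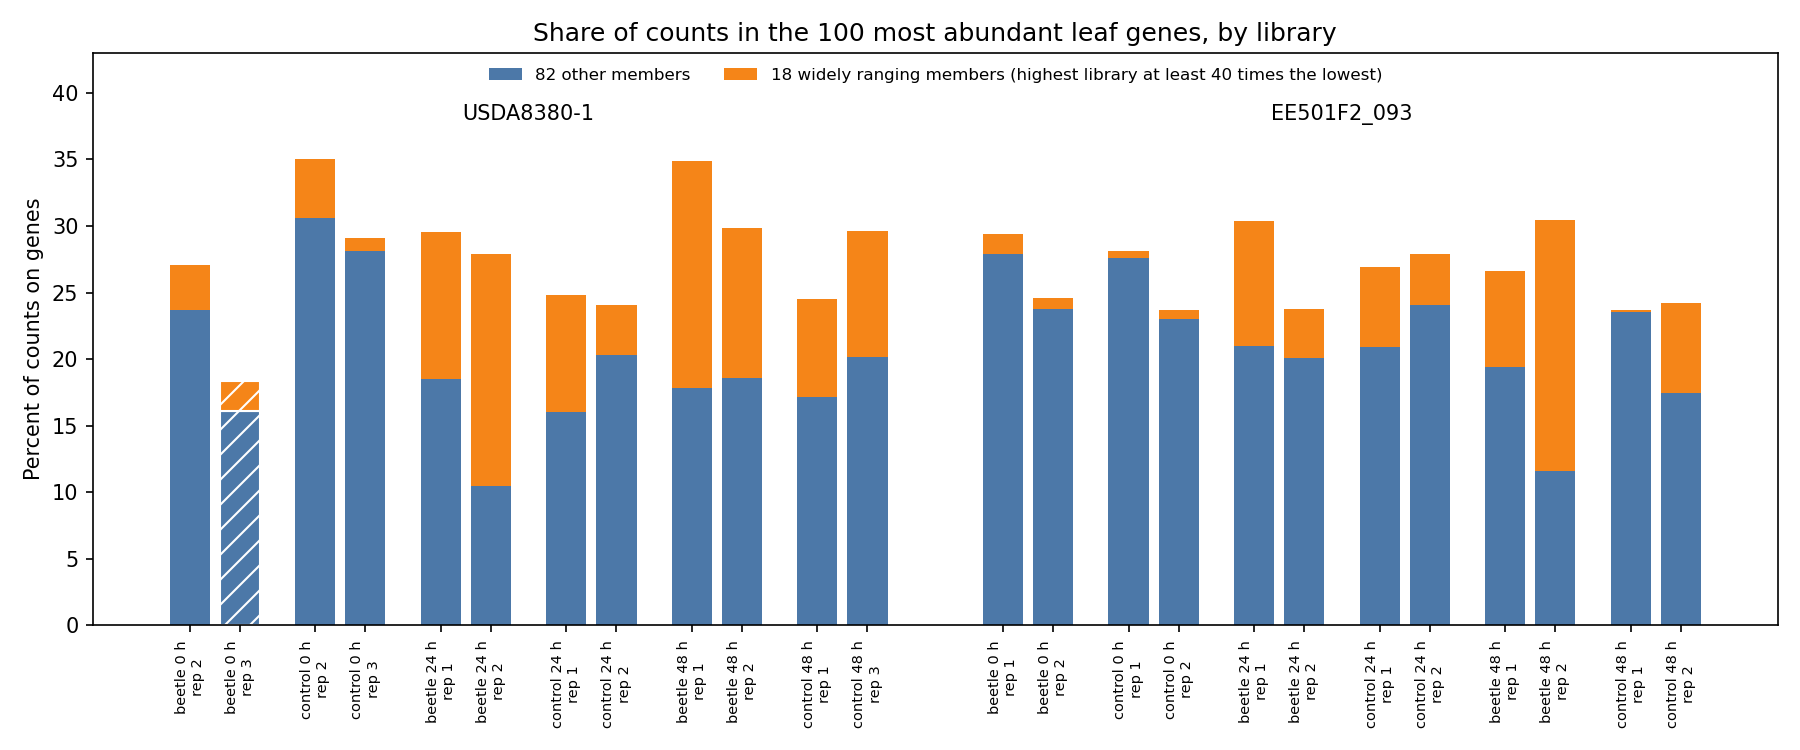
Percent of the counts on genes held by the 82 other members (blue) and by the 18 widely ranging members (orange) in each of the 24 libraries, 1 bar per library; the hatched bar is the shallow library. Total heights stay between 23.7% and 35.0% in the other 23 libraries, while the orange part is 0.485% to 4.39% at 0 h and 0.158% to 18.9% at 48 h.

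A pair of beetle libraries carried many of the extremes of the members. EE501F2_093 beetle 48 h replicate 2 was the highest library for 8 of the 18 widely ranging members and the lowest for 28 of the other 82. USDA8380-1 beetle 24 h replicate 2 was the highest for 5 and the lowest for 28. In them the other 82 held 11.6% and 10.4% of the counts, against 16.1% to 30.6% in the remaining 21 libraries. At the opposite end, EE501F2_093 control 48 h replicate 1 was the lowest for 12 of the 18, and USDA8380-1 control 0 h replicate 2 the highest for 33 of the 82. Shares of a library add up to a fixed total, so a gain of some genes lowers the summed share of all others. From replicate 1 to replicate 2 of EE501F2_093 beetle 48 h, the other 82 went from 19.4% to 11.6%. All genes outside the members went from 73.4% to 69.5%. For USDA8380-1 beetle 24 h the same steps were 18.5% to 10.4% and 70.4% to 72.1%. Whether the fixed total accounts for the low values of the 82 was not tested.

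**Figure D3:**
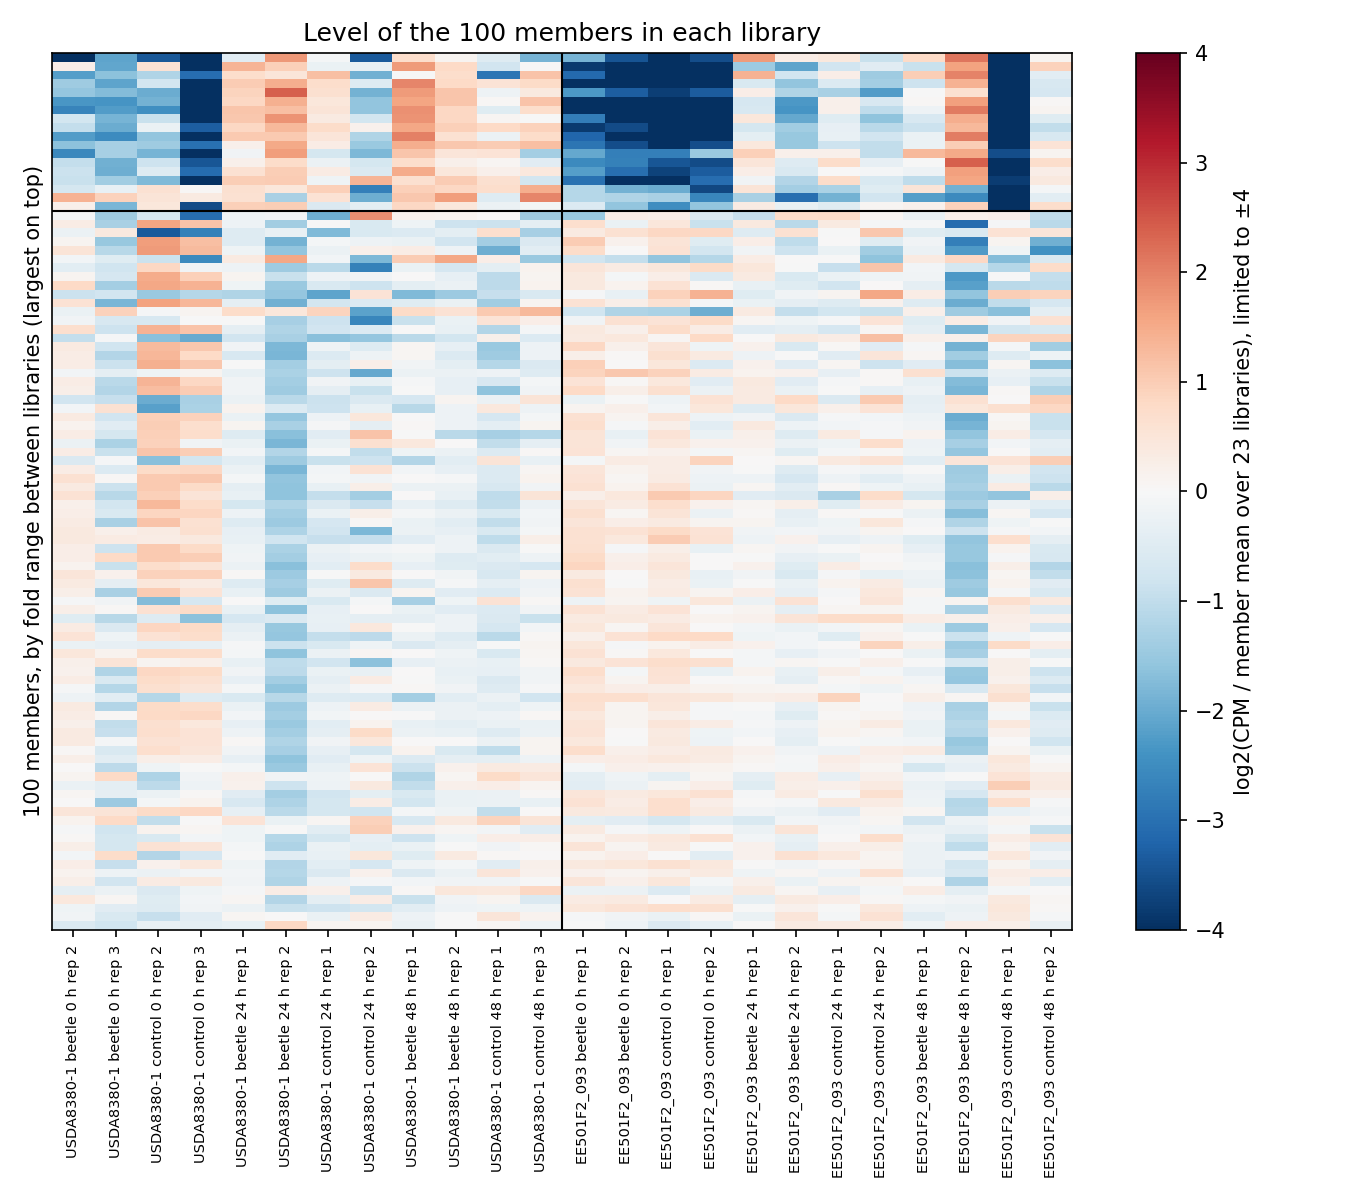
log2 of each member's CPM over its mean across 23 libraries (colour, limited to ±4), with members in rows by falling fold range and the 24 libraries in columns. Above the horizontal line lie the 18 widely ranging members, mostly blue at 0 h and in EE501F2_093 control 48 h replicate 1; below it, 82 members are paler, with EE501F2_093 beetle 48 h replicate 2 and USDA8380-1 beetle 24 h replicate 2 low for 28 of them each.

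The members were spread over all 12 chromosomes as read from their identifiers, with 16 on chromosome 2, 14 on chromosome 9 and 12 on chromosome 7, and 2 each on chromosomes 5 and 11. Neighbouring identifiers, at most 50 apart where 86.9% of steps in the table are 10, joined 18 members into 6 runs. Among the next 100 genes 5 runs held 13 genes and the longest had 5. Near-identical neighbours can share reads, and these counts do not show whether they did, which leaves the split of reads within a run uncertain.

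The longest run was 7 members on chromosome 9, from Soltu.DM.09G025860.1 to Soltu.DM.09G025940.1, and all 7 were widely ranging. Their means summed to 24982 CPM. The run covers 9 rows of the table, and of the 2 that are not members, Soltu.DM.09G025870.1 was listed at 0 counts in the 23 libraries and Soltu.DM.09G025920.1 averaged 845.9 CPM. In USDA8380-1 beetle leaves the 7 together held 1.00% of the counts at 0 h, 4.43% and 5.95% at 24 h, and 7.69% and 4.33% at 48 h. USDA8380-1 control leaves had 1.44% and 0.174%, then 3.58% and 1.74%, then 3.29% and 4.15% at the 3 harvests. In this genotype the later hours of both arms lay above 0 h, a direction that the choice of widely ranging members favours.

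EE501F2_093 beetle leaves had 0.224% and 0.183% in the run at 0 h, 2.01% and 0.996% at 24 h, and 1.88% and 8.06% at 48 h. EE501F2_093 control leaves had 0.0785% and 0.118%, then 2.46% and 1.43%, then 0.0440% and 2.20%. The extremes of the 7 fell in few libraries. Of the 7, 5 had their highest level in EE501F2_093 beetle 48 h replicate 2 and 2 in USDA8380-1 beetle 48 h replicate 1. In EE501F2_093 control 48 h replicate 1, 5 had their lowest. Among all 18 widely ranging members, the 7 included, the same libraries were the highest for 8 and 3 and the lowest for 12. Another pair of widely ranging neighbours, Soltu.DM.03G023530.1 and Soltu.DM.03G023550.1 on chromosome 3, summed to 6523 CPM.

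**Figure D4:**
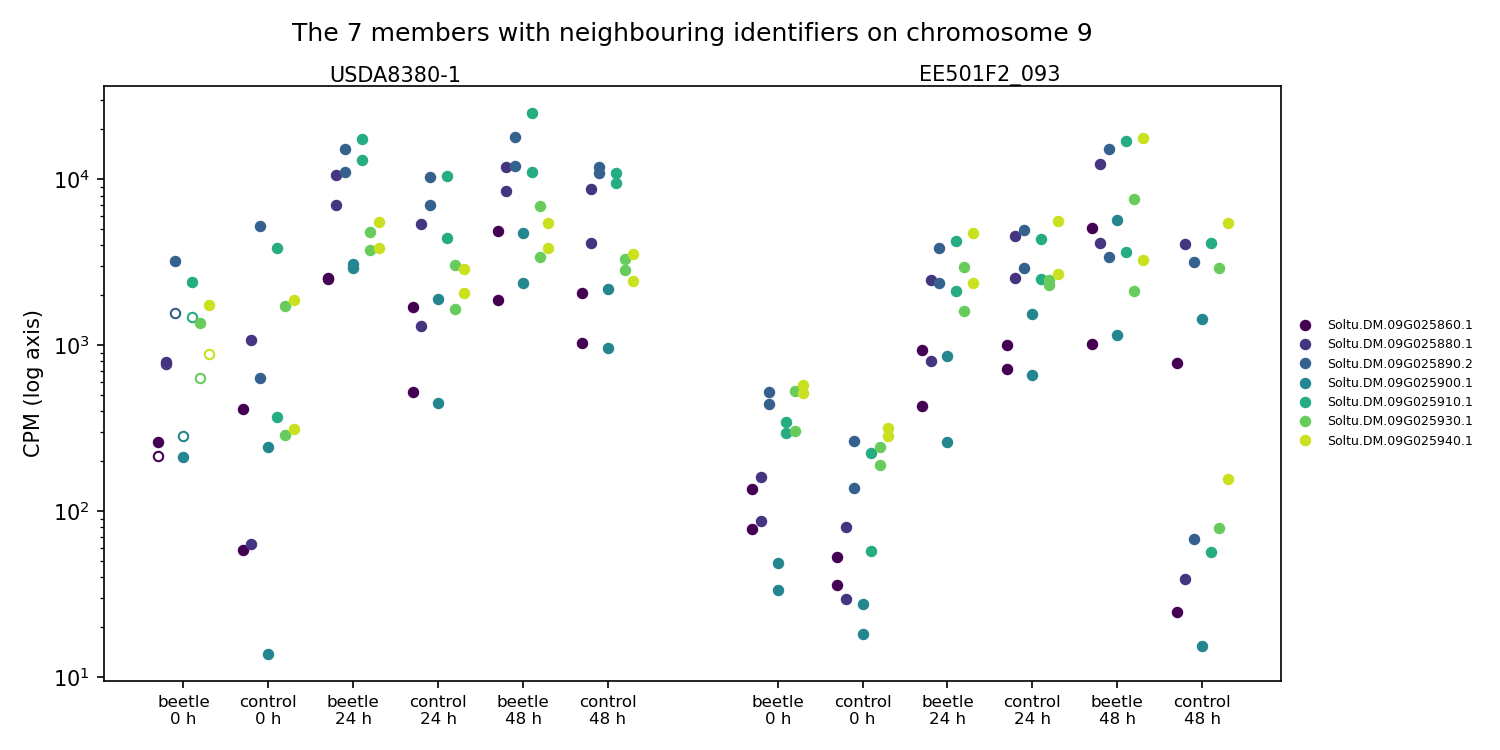
CPM (log axis) of the 7 members with neighbouring identifiers on chromosome 9 in every library, by genotype, hour and arm; points are libraries and open points the shallow one. Most of the 7 lie lowest in EE501F2_093 leaves at 0 h and in 1 EE501F2_093 control library at 48 h, where they hold 0.0440% of the counts together, and high in EE501F2_093 beetle 48 h replicate 2, where they hold 8.06%.

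To test the harvests gene by gene, both genotypes and arms were averaged in 1 edgeR quasi-likelihood fit of 25580 genes, with TMM scaling and Benjamini-Hochberg adjustment over all of them. Of the members, 4 were higher and 6 lower at 24 h than at 0 h at an adjusted p under 0.05, against 3.04% of all genes tested (1.3% higher and 1.74% lower). At 48 h 4 were higher and 3 lower than at 0 h, against 1.78% of all genes (0.864% higher and 0.915% lower). The 2 comparisons share their 0 h libraries, and 5 members were called in both. The members were chosen on their mean over libraries of all 3 hours, most of them from 24 and 48 h. A gene high only at the later hours, or only at 0 h, could enter, so neither the rises nor the falls are independent of the choice. Soltu.DM.09G025900.1, for example, was at most 244.3 CPM at 0 h, below the mean of 1156 CPM of the last member.

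Soltu.DM.09G025900.1, of the run on chromosome 9, had the largest rise among the members called. Its level lay between 260.2 and 3086 CPM at 24 h with a median of 1200 CPM, and between 15.3 and 5674 CPM at 48 h with a median of 1816 CPM. At 0 h it lay between 13.9 and 244.3 CPM with a median of 33.8 CPM. Of the 23 libraries, all at 24 h were above all at 0 h, and at 48 h 1 library, EE501F2_093 control 48 h replicate 1 at 15.3 CPM, was not. The shallow 0 h library, at 284.7 CPM, lay above the lowest 24 h library. It rose by 4.05 (SE 0.97) on the log2 scale at 24 h and by 4.76 (SE 1.02) at 48 h (edgeR, adjusted p = 0.0391 and 0.0343).

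Soltu.DM.09G025880.1, from the same run, lay between 808.4 and 10592 CPM at 24 h and between 39.0 and 12368 CPM at 48 h, with medians of 3564 and 6340 CPM, against 29.4 to 1072 CPM and a median of 87.8 CPM at 0 h. Its log2 fold change was 3.91 (SE 0.95) at 24 h and 4.61 (SE 1.01) at 48 h (edgeR, adjusted p = 0.0412 and 0.0363). For this gene 24 h overlapped with 0 h, through USDA8380-1 control 0 h replicate 2 at 1072 CPM.

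The largest falls were in members outside the widely ranging 18. Soltu.DM.02G025840.2 lay between 903.8 and 2550 CPM at 24 h and between 567.8 and 2792 CPM at 48 h, against 2653 to 7481 CPM at 0 h, and medians were 1745, 1596 and 3797 CPM. Of the 23 libraries, every one at 24 h was below every one at 0 h. On the log2 scale the change was −1.25 (SE 0.31) at 24 h and −1.40 (SE 0.31) at 48 h (edgeR, adjusted p = 0.0450 and 0.0398).

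Soltu.DM.04G005250.1 fell to between 1203 and 2948 CPM at 24 h, against 3190 to 7375 CPM at 0 h, without overlap among the 23 libraries (log2 fold change −1.20, SE 0.29, edgeR adjusted p = 0.0400). Soltu.DM.02G025810.1, which neighbours Soltu.DM.02G025840.2 on chromosome 2, fell to between 325.3 and 1373 CPM at 48 h, against 1204 to 3883 CPM at 0 h (log2 fold change −1.36, SE 0.32, edgeR adjusted p = 0.0467). In the shallow 0 h library, which entered none of these fits, Soltu.DM.02G025840.2 was at 982.9 CPM, Soltu.DM.04G005250.1 at 1559 CPM and Soltu.DM.02G025810.1 at 358.1 CPM, below every other 0 h library. With all 24 libraries none of the 3 was called (edgeR, adjusted p between 0.0638 and 0.102). Without USDA8380-1 control 24 h replicate 2, Soltu.DM.02G025840.2 and Soltu.DM.04G005250.1 missed the threshold at 24 h (edgeR, adjusted p = 0.0706 and 0.0528).

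Over all 100 members, negative fold changes outnumbered positive ones at both later harvests. The members were chosen on levels at these same hours, so the values that follow are a description. The median log2 fold change of all 100 was −0.45 at 24 h and −0.48 at 48 h, against 0.04 and 0.02 over all genes tested, and 36 and 35 of the 100 were positive. Unadjusted p under 0.05 was reached by 53 members at 24 h and 64 at 48 h, against 20% and 17.6% of all genes tested. In control leaves alone, 48 h against 0 h, no member was called in either genotype by edgeR, although 43 in USDA8380-1 and 13 in EE501F2_093 had an unadjusted p under 0.05, against 20.4% and 3.79% of all genes. DESeq2 called 24 and 2 there, against 9.15% and 0.123% of the genes it gave an adjusted p. The background of edgeR calls was 0.841% of genes in USDA8380-1 controls and 0% in EE501F2_093 controls.

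The calls by harvest depended on single libraries. Shares of all genes called were not set beside the edgeR counts with other library sets, here and below. Those counts are therefore not read as a trait of the members. Of 22 fits that each left out 1 library, 8 called no member at 24 h and 9 called none at 48 h, and the counts reached 23 and 16. No member was called at 24 h without USDA8380-1 control 0 h replicate 3, USDA8380-1 beetle 24 h replicate 2, EE501F2_093 control 0 h replicate 1, EE501F2_093 control 24 h replicate 1, or any of the 4 EE501F2_093 beetle libraries of 0 and 24 h. None was called at 48 h without USDA8380-1 control 48 h replicate 1, either USDA8380-1 beetle 48 h library, either EE501F2_093 control 0 h library, EE501F2_093 control 48 h replicate 2, either EE501F2_093 beetle 0 h library, or EE501F2_093 beetle 48 h replicate 2. At 24 h the count was 1 without EE501F2_093 control 0 h replicate 2, 4 or 5 without either USDA8380-1 beetle 48 h library, 16 without either EE501F2_093 control 48 h library and 23 without USDA8380-1 beetle 24 h replicate 1. The 48 h count dropped to 1 when USDA8380-1 control 0 h replicate 3 was left out, and was 4 without USDA8380-1 control 0 h replicate 2 or either EE501F2_093 beetle 24 h library, 13 without EE501F2_093 control 48 h replicate 1, 15 without USDA8380-1 control 48 h replicate 3 and 16 without EE501F2_093 beetle 48 h replicate 1. With all 24 libraries the counts were 14 higher and 4 lower at 24 h, and 14 higher and 0 lower at 48 h. Without USDA8380-1 control 24 h replicate 2 they were 3 higher and 1 lower, and 6 higher and 3 lower. DESeq2 called 33 members at 24 h and 47 at 48 h, against 10.9% and 8.28% of the genes it gave an adjusted p. The log2 fold changes of the named genes kept their sign throughout.

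Beetle leaves were then compared with control leaves at 24 and 48 h. No member was called by edgeR in USDA8380-1 or EE501F2_093 at either hour, over both hours within a genotype, or over both genotypes and hours, where 0.00391% of all genes tested, 1 gene, was called, and the background was 0% in the other 6. At an unadjusted p under 0.05 there were 3 members in USDA8380-1 at 24 h, 2 at 48 h and 2 over both hours, against 12.2%, 5.57% and 7.97% of all genes. In EE501F2_093 there were 0 at 24 h, against 843 of the 25580 genes tested. There were 4 at 48 h and 5 over both hours in that genotype, against 2.94% and 7.06% of all genes. Over both genotypes there were 12, against 12.7% of all genes. DESeq2 called 1 member over both hours in USDA8380-1 and 1 over both genotypes, against 0.695% and 1.72% of the genes it gave an adjusted p, and 0 members in the other 5. Without USDA8380-1 control 24 h replicate 1, edgeR called 1 member in USDA8380-1 at 24 h and 2 over both genotypes. A difference between the genotypes in the beetle effect was called by edgeR for no member and for 0 of all genes. At an unadjusted p under 0.05 there were 0 members for it, against 860 of the 25580 genes tested. DESeq2 called 0 there.

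Soltu.DM.12G027320.1, the most abundant member, had 6214 and 28354 CPM at 24 h and 13981 and 9277 CPM at 48 h in USDA8380-1 beetle leaves, against 8112 and 842.2 CPM at 24 h and 5950 and 2366 CPM at 48 h in USDA8380-1 control leaves. In EE501F2_093 beetle leaves it had 28151 and 10486 CPM at 24 h and 14822 and 37505 CPM at 48 h, against 11522 and 4654 CPM at 24 h and 107.0 and 9208 CPM at 48 h in EE501F2_093 control leaves. In each genotype the highest control library exceeded the lowest beetle library. At 0 h it had 447.7 CPM in the USDA8380-1 beetle library (1993 CPM in the shallow one), against 807.5 and 39.5 CPM in controls, and 2340 and 777.4 CPM in EE501F2_093 beetle leaves, against 186.9 and 734.6 CPM in controls. On the log2 scale beetle over control at 24 and 48 h came to 1.91 (SE 0.81; edgeR adjusted p = 0.353) over both genotypes, 1.94 (SE 1.14, adjusted p = 0.710) in USDA8380-1 and 1.89 (SE 1.14, adjusted p = 0.746) in EE501F2_093.

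Soltu.DM.01G031820.1, rank 52, had the smallest p of the members over both genotypes and was picked for that. USDA8380-1 beetle leaves had 2597 and 5887 CPM at 24 h and 4115 and 5974 CPM at 48 h, against 1873 and 583.6 CPM at 24 h and 2416 and 717.4 CPM at 48 h in controls. EE501F2_093 beetle leaves had 2492 and 2040 CPM at 24 h and 2598 and 3606 CPM at 48 h, against 2021 and 659.4 CPM at 24 h and 603.8 and 1326 CPM at 48 h in controls. Within each genotype the arms did not overlap. They did not overlap at 0 h either, before any beetle was present, when USDA8380-1 had 1883 CPM in the beetle arm (1464 CPM in the shallow library), against 1120 and 347.3 CPM in controls, and EE501F2_093 had 1159 and 1042 CPM in the beetle arm, against 684.3 and 914.3 CPM in controls. At 24 and 48 h the fit of both genotypes put it 1.57 higher in beetle leaves on the log2 scale (SE 0.37; edgeR adjusted p = 0.190). It was called by DESeq2 (adjusted p = 0.00196) and by edgeR without USDA8380-1 control 24 h replicate 1 (adjusted p = 0.0295), and over all 23 fits without 1 library the adjusted p lay between 0.0295 and 0.501.

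Between the arms before beetles, at 0 h, no member was called by edgeR or DESeq2, and edgeR called 0% of all genes. At an unadjusted p under 0.05 there were 0 members in EE501F2_093, against 367 of the 25580 genes tested. USDA8380-1 had only 1 beetle library in this comparison, so no such count is given for it.

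**Figure D5:**
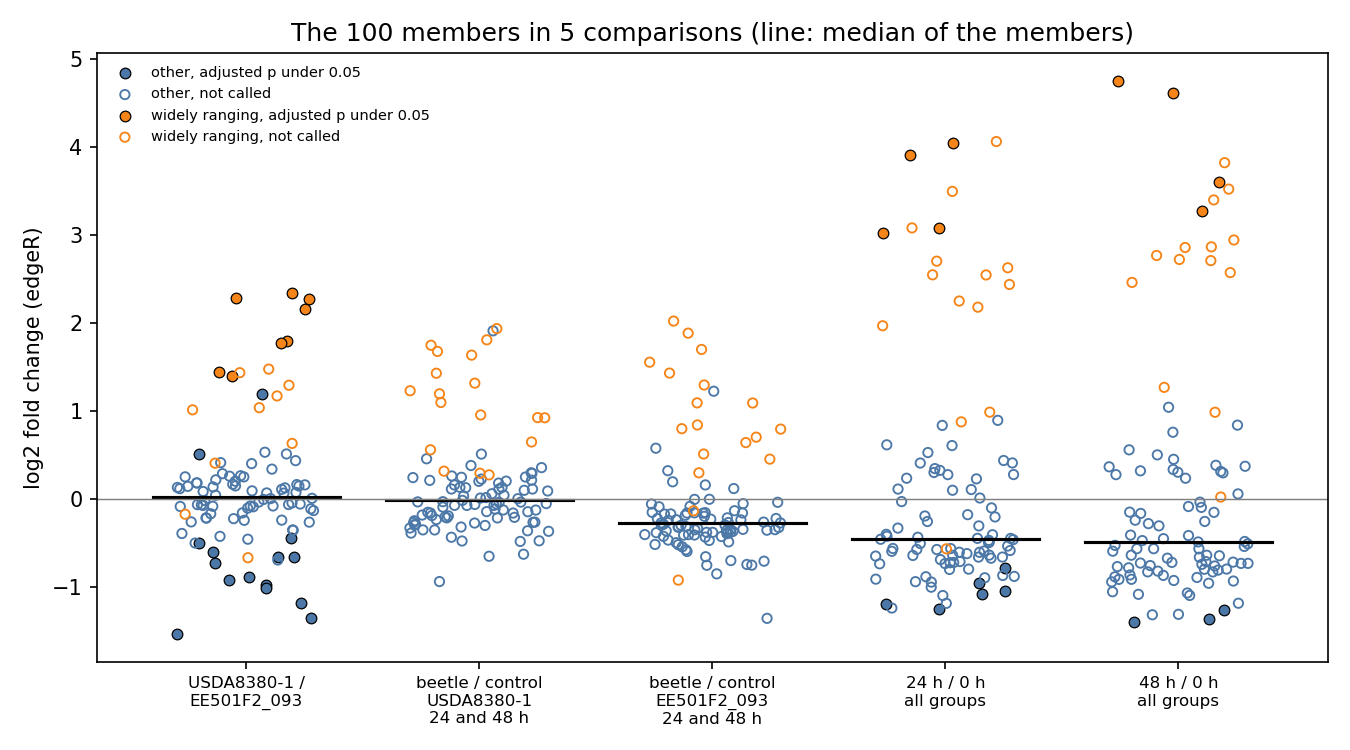
log2 fold changes of the 100 members (points) in 5 edgeR comparisons, with filled points at an adjusted p under 0.05, orange for the 18 widely ranging members and black lines at the median of the members. Filled points stand at 10 higher and 13 lower between the genotypes, at 0 in both beetle comparisons, and at 4 higher and 6 lower (24 h) and 4 higher and 3 lower (48 h) against 0 h.

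Between the genotypes, over all harvests and arms, 10 members were higher and 13 lower in USDA8380-1 than in EE501F2_093 (edgeR, adjusted p under 0.05). These 23 of 100 compare with 38.9% of all genes tested, 19.3% higher and 19.6% lower. The median log2 fold change of the members was 0.03, against 0.00 over all genes. A gene high in only a single genotype could enter the members, so these differences are not independent of the choice. Soltu.DM.11G012500.1, for example, was at most 955.6 CPM in EE501F2_093 leaves, below the mean of 1156 CPM of the last member. Of the 10 higher members 4 were in the run on chromosome 9. At 0 h alone 3 were higher and 3 lower, against 13.3% of all genes tested (7.05% higher and 6.23% lower), and all 6 were among the 23. DESeq2 called 17 at 0 h, against 19.3% of all genes tested.

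Soltu.DM.11G012500.1 ranged between 331.2 and 4965 CPM in USDA8380-1 leaves with a median of 1916 CPM (n = 11), and between 75.1 and 955.6 CPM in EE501F2_093 leaves with a median of 430.6 CPM (n = 12). Only 3 of the 11 USDA8380-1 libraries lay within the range of the other genotype. Between genotypes its log2 fold change came to 2.35 (SE 0.47; adjusted p = 0.00122 by edgeR). Soltu.DM.09G025890.2, of the run on chromosome 9, had medians of 10888 CPM in USDA8380-1 (634.7 to 17977 CPM) and 2638 CPM in EE501F2_093 (67.7 to 15238 CPM), and differed by 2.29 on the log2 scale (SE 0.51; adjusted p = 0.00275 by edgeR).

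Soltu.DM.02G020670.1 had the smallest adjusted p of the members named for this comparison. It lay between 303.2 and 1420 CPM in USDA8380-1 leaves with a median of 581.4 CPM, and between 1235 and 2814 CPM in EE501F2_093 leaves with a median of 1584 CPM. The genotypes overlapped through USDA8380-1 control 48 h replicate 1 alone, at 1420 CPM. Its log2 fold change came to −1.53 (SE 0.18), with an adjusted p of 1.15e-05 by edgeR. Soltu.DM.01G050210.2 had medians of 668.5 CPM in USDA8380-1 (357.1 to 2260 CPM) and 1786 CPM in EE501F2_093 (518.8 to 4487 CPM), and differed by −1.36 on the log2 scale (SE 0.33; adjusted p = 0.00429 by edgeR).

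At 0 h, Soltu.DM.03G018520.1 had 3583 CPM in the USDA8380-1 beetle arm and 4410 and 71.0 CPM in its control arm, against 210.5 and 90.6 CPM in the EE501F2_093 beetle arm and 12.3 and 181.1 CPM in its control arm. The genotypes overlapped through USDA8380-1 control 0 h replicate 3. The fit gave a log2 fold change of 4.68 with an SE of 1.44 (adjusted p = 0.0449 by edgeR). Soltu.DM.09G025910.1 had 2396 CPM, and 3843 and 370.3 CPM, in the USDA8380-1 beetle and control arms at 0 h, against 346.1 and 296.3 CPM, and 57.7 and 224.9 CPM, in EE501F2_093, without overlap (log2 fold change 3.52, SE 1.08, edgeR adjusted p = 0.0431).

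Of the lower members at 0 h, Soltu.DM.09G023580.1 had 1264 CPM in the USDA8380-1 beetle arm and 145.1 and 227.7 CPM in its control arm, against 1919 and 2274 CPM in the EE501F2_093 beetle arm and 2684 and 2655 CPM in its control arm (log2 fold change −2.23, SE 0.52, edgeR adjusted p = 0.0118). In the shallow library it had 1965 CPM, inside the range of EE501F2_093. Soltu.DM.02G020670.1 was at 628.1 CPM, and at 381.6 and 303.2 CPM, in the USDA8380-1 arms, against 1298 to 2118 CPM in EE501F2_093 at 0 h (log2 fold change −1.76, SE 0.34, edgeR adjusted p = 0.00382). Its 1185 CPM in the shallow library lay just below the EE501F2_093 range.

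The calls at 0 h were again sensitive to single libraries, with 2 to 11 members over 22 fits. Only 2 were called without EE501F2_093 control 0 h replicate 1 or 2 or without EE501F2_093 beetle 0 h replicate 1 or 2. The count was 3 without USDA8380-1 control 0 h replicate 2, either USDA8380-1 beetle 48 h library, or any of the 4 EE501F2_093 libraries of 24 h, and 11 without either EE501F2_093 control 48 h library. Over all harvests the count of 23 lay between 14 and 29. It was 14 without EE501F2_093 control 0 h replicate 1, and 15 without USDA8380-1 control 0 h replicate 2, EE501F2_093 control 24 h replicate 2 or EE501F2_093 beetle 0 h replicate 2. With all 24 libraries 26 were called over all harvests and 11 at 0 h, and without USDA8380-1 control 24 h replicate 2 the counts were 24 and 8.

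Of the 100 members, 68 were called neither between the genotypes nor at 24 or 48 h against 0 h. The same share over all genes tested was not computed, so the 68 are not read as a trait of the members. Over all 25580 genes, 38.9% were called between the genotypes, and 777 and 455 genes at 24 and 48 h against 0 h. The member with the smallest coefficient of variation, Soltu.DM.01G039490.1, lay between 797.8 and 2236 CPM in the 23 libraries, and 63 members had a coefficient under 0.5. At the other end 10 had a coefficient of at least 1, and the largest belonged to Soltu.DM.09G004660.1, which lay between its lowest library, EE501F2_093 control 48 h replicate 1 with 54.6 CPM, and its highest, USDA8380-1 beetle 24 h replicate 2 with 23898 CPM. Its level was 8469 to 23898 CPM in USDA8380-1 beetle leaves at 24 and 48 h, against 1232 to 7116 CPM in USDA8380-1 control leaves, and 1993 to 7187 CPM in EE501F2_093 beetle leaves, against 54.6 to 2896 CPM in EE501F2_093 control leaves. Over both genotypes beetle over control was 1.76 on the log2 scale (SE 0.68, edgeR adjusted p = 0.326), and it was not called. At 0 h, before beetles, it had 1556 CPM in the USDA8380-1 beetle arm (1378 CPM in the shallow library), against 1166 and 80.7 CPM in controls. EE501F2_093 had 939.9 and 464.6 CPM in the beetle arm at 0 h, against 340.3 and 454.1 CPM in controls.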

How the data were processed

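Leaf messenger RNA of 24 pooled samples was sequenced as single reads of 50 nt from a stranded library kit, per the labels' protocols. Trimmomatic 0.35, STAR 2.7.3a, Picard and HTSeq are named in the submitters' processing notes; the build and annotation: not given in the sources used here. What the authors deposited are raw read counts per gene, 1 file per library. Their 5 summary lines were kept out of totals and tests; the shares of reads outside genes were 7.76% to 12.0% in 23 libraries (median of all 24, 9.99%) and 17.4% in USDA8380-1 beetle 0 h replicate 3. No line held reads aligned to several places, so how near-identical genes were counted cannot be told.

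CPM was computed on 32917 genes and averaged over 23 libraries, and the 100 highest genes were taken. Their names could not be looked up, so the lists by product and the leaf markers were not used. The members and lists were chosen with earlier results of these data known. Differences were tested with edgeR 4.0.16 (glmQLFit and glmQLFTest, filterByExpr, TMM, 12 group means, 11 residual degrees of freedom, no block) on 25580 genes in 16 contrasts, with Benjamini-Hochberg adjustment and a threshold of 0.05. All 100 members passed the filter. Summed shares were compared by two-sided permutation tests (SciPy 1.17.1), and shares carry 95% Wilson intervals. The tests were checked on simulated data. DESeq2 1.42.0, other scalings, filters, member choices and library sets were alternatives. Genes are named by rule: the 10 highest, the nearest to the limit of 100, the largest and smallest coefficients of variation, and per contrast with calls the 2 called members with the largest change in each direction. Members of the chromosome 9 run, of a pair on chromosome 3, those nearest the limit of 40-fold, and Soltu.DM.01G031820.1 were named after their values were seen.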

Additional observations from a re-analysis of the deposited data

Results flagged for a closer look

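In 153 tests, 17 measures over 9 sets of 4 libraries each, 15 had a highest or lowest library far from the others by Dixon's 95% limits. Chance gives about 1 in 20 tests only for measures not chosen on the same values. The genes among the measures were named for their levels or changes in these libraries, so the 15 are not read as an excess. Sets were the libraries of a genotype at 1 harvest (USDA8380-1 at 0 h, with 3 libraries, was not tested), or of 1 arm of a genotype at 24 and 48 h. They overlap, and a library can be found for several measures; "others" are the other libraries of its set. EE501F2_093 beetle 48 h replicate 2 accounted for 7 of the 15. It was the highest library for Soltu.DM.09G025890.2 at 15238 CPM (others 2362 to 3850 CPM), Soltu.DM.03G018520.1 at 8953 CPM (others 686.7 to 1591 CPM), Soltu.DM.09G025910.1 at 17002 CPM (others 2130 to 4236 CPM) and Soltu.DM.09G025900.1 at 5674 CPM (others 260.2 to 1159 CPM). In the same library the members outside the widely ranging 18 held 11.6% of the counts (others 19.4% to 21.0%), Soltu.DM.02G025840.2 was at 567.8 CPM (others 1822 to 2049 CPM) and Soltu.DM.04G005250.1 at 781.2 CPM (others 2024 to 2171 CPM). High values of widely ranging members and low values of other members thus met in 1 library.

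USDA8380-1 beetle 24 h replicate 2 had 10.4% of its counts in the other members, against 17.8% to 18.6% in the libraries beside it. USDA8380-1 beetle 48 h replicate 1 had 25019 CPM of Soltu.DM.09G025910.1 (others 9475 to 11117 CPM). USDA8380-1 control 48 h replicate 3 had 29.6% of its counts in the members (others 24.0% to 24.8%). EE501F2_093 control 24 h replicate 2 had 4487 CPM of Soltu.DM.01G050210.2 (others 1114 to 1676 CPM) and 2948 CPM of Soltu.DM.04G005250.1 (others 1686 to 1843 CPM). USDA8380-1 control 24 h replicate 2 had 2260 CPM of Soltu.DM.01G050210.2 (others 357.1 to 668.5 CPM). EE501F2_093 beetle 24 h replicate 2 had 2269 CPM of Soltu.DM.09G023580.1 (others 979.0 to 1077 CPM). EE501F2_093 control 0 h replicate 2 had 207.6 CPM of Soltu.DM.11G012500.1 (others 515.5 to 573.5 CPM).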

How the results depend on the processing

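The shares and counts of calls below refer to the 100 members. With the top 50, the share in beetle over control leaves of both genotypes differed by 3.80 percentage points and passed (exact permutation test, adjusted p = 0.0457), and 48 h over 0 h turned to 1.29 in USDA8380-1 and 1.35 in EE501F2_093. As these 50 were ranked on the libraries tested, the pass is not read as an arm difference. The share at 24 h over 0 h in EE501F2_093 turned to −0.469 without the most abundant gene and −0.409 with each library's own top 100, and that at 48 h over 0 h in USDA8380-1 turned to 2.32 with all 24 libraries. The cause was not tested. Leaving out 1 library gave 1.48 to 2.58 for the genotypes, and for beetle over control 3.34 to 6.09 in USDA8380-1, 1.23 to 3.46 in EE501F2_093 and 2.73 to 4.13 in both. For 24 h over 0 h it gave −5.50 to −1.53 in USDA8380-1 and −0.236 to 1.95 in EE501F2_093, with −0.115 and −0.236 without EE501F2_093 control 0 h replicate 2 and beetle 24 h replicate 1. For 48 h over 0 h it gave −2.44 to 1.60 in USDA8380-1, with 1.60 and 1.03 without control 0 h replicate 2 and control 48 h replicate 1. In EE501F2_093 that range was −1.62 to 0.775, with 0.343, 0.650, 0.461 and 0.775 without control 0 h replicate 1, control 48 h replicates 1 and 2, and beetle 0 h replicate 1.

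Shares of all genes under these alternatives are given only for DESeq2, above, so the counts of calls are not read as a trait of the members. Of the counts of calls, that between genotypes was 13 with a log2 fold change of at least 1. At 48 h over 0 h 11 were called without a filter. In USDA8380-1 controls 1 was called at 48 h over 0 h with library totals alone, without a filter, with all 24 libraries, and without USDA8380-1 control 24 h replicate 2. DESeq2 called 17 between genotypes before beetles, and against 0 h it called 33 for 24 h and 47 for 48 h, 24 and 2 in USDA8380-1 and EE501F2_093 controls, and 1 for beetle leaves in USDA8380-1 and in both genotypes. With all 24 libraries the genotypes differed in 11 at 0 h, and 18 at 24 h and 14 at 48 h differed from 0 h; without USDA8380-1 control 24 h replicate 2 4 did at 24 h. Leaving out 1 library gave 14 to 29 calls between genotypes, or 2 to 11 for 0 h alone; against 0 h it gave 0 to 23 for 24 h and 0 to 16 for 48 h. It gave 0 to 1 for beetle leaves in USDA8380-1 at 24 h, 0 to 2 in both genotypes, and 0 to 2 in USDA8380-1 controls, where 2 came without USDA8380-1 control 48 h replicate 3 and 1 without any control library of 24 h, of either genotype. Library totals moved the median of all genes by −0.14 for beetle over control in USDA8380-1 at 24 h. The deviations of samples with the same replicate number correlated between −0.424 and 0.399 over 15 EE501F2_093 pairs (median 0.145, 9 pairs over 0.1) and between −0.322 and 0.0986 over 3 USDA8380-1 pairs (median −0.114, 0 pairs over 0.1). Since not every pair passed 0.1, the numbers were not taken to pair the samples. With the replicate block 3 members were called between genotypes at 0 h, while 2 differed from 0 h at 24 h and 15 did at 48 h. Of 630 fold changes and mean levels of named genes under alternatives, none changed sign, 137 lost their call and 2 gained one.

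With the widely ranging limit at 20-fold or 100-fold, chosen after seeing the data, 22 or 13 members qualified and held 0.997% to 19.3% or 0.0888% to 16.3% of the counts. The smallest count of a member in the 23 libraries was 390, and counting error of a summed share was at most 0.0170 percentage points there.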
